A study of Mus musculus with 8 samples.

Results

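Visceral endoderm is the outer epithelium of the early mouse embryo, and yolk sac endoderm is the part of it that comes to line the yolk sac. Here these cells were taken as the barcodes with at least 1 UMI (unique molecular identifier, a counted transcript molecule) in at least 4 of 5 genes, Apoa4, Cubn, Amn, Apob and Afp. The rule selected 1231 of 49866 cells from 8 single-cell RNA-seq libraries, of which 1211 came from 3 WT host libraries and 20 from 5 Tet-TKO libraries. Since members were chosen by measured counts of these 5 genes, the levels of the 5 are given below as a description only.

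The libraries came from chimaeric mouse embryos, in which ES cells lacking all TET dioxygenases, the enzymes that oxidise methylated cytosine, had been injected into wild-type C57BL/6J blastocysts. The Tet-TKO cells derived from 1 ES cell line of mixed C57BL/6J-129Sv background and carried a CAG-driven H2B-tdTomato reporter. Embryos were pooled, dissociated and sorted as live single cells into a tdTomato+ fraction (Tet-TKO) and a tdTomato- fraction (WT host, C57BL/6J, no treatment). Each fraction gave 1 library at E7.5, while at E8.5 the tdTomato+ fraction gave 4 and the tdTomato- fraction 2. Genotype, strain and sorted fraction change together in this design and cannot be told apart, and no source states whether the libraries of a group came from separate pools of embryos. Kept barcodes had at least 1500 UMIs, and 1012 to 9552 of them were kept per library, with median depths of 12176 to 68704 UMIs. Any pair of libraries shared 0 to 28 of these barcodes.

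Visceral endoderm descends from the primitive endoderm of the blastocyst, a lineage separate from the epiblast that forms the embryo proper. It feeds the embryo before the placenta works: it takes up maternal proteins through the cubilin, amnionless and megalin receptor complex, digests them in lysosomes, and secretes apolipoproteins and plasma carriers much as liver does later. The visceral endoderm over the epiblast, and above all its anterior portion, instead secretes inhibitors of Nodal, Wnt and BMP signals that help to place the head. After gastrulation most of that embryonic region is replaced by or mixed into gut endoderm, while the extraembryonic region becomes the yolk sac endoderm. ES cells placed in a blastocyst contribute mainly to the epiblast and its derivatives.

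At E7.5 the WT host library held 480 members among 7142 cells, a share of 6.72% (95% exact binomial interval 6.15 to 7.33). The E8.5 WT host libraries held 523 of 8260 cells, or 6.33% (5.82 to 6.88), and 208 of 9038 cells, or 2.30% (2.0 to 2.63). These intervals, like all those given here for shares and counts, cover counting error only. The 2 libraries of the same stage thus lay farther apart than either interval allows, and the E7.5 share was close to that of the first. The mean of the log2 shares was lower at E8.5 by 0.82. It was lower by 0.09 without WT host library 2 and by 1.55 without WT host library 1. No test was made, since an exact permutation test of 1 library against 2 cannot give even a one-sided p below 0.333.

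Few cells of the tdTomato+ fraction met the rule. The E7.5 Tet-TKO library held 8 members among 5513 cells, or 0.145% (0.0627 to 0.286). The E8.5 Tet-TKO libraries held 6 of 7045, 2 of 9552, 4 of 2304 and 0 of 1012 cells, which are 0.0852%, 0.0209%, 0.174% and a count of 0 that allows up to 0.364%. Each of these shares lay below each WT host share. Mean log2 share at E8.5, with the library at 0 set to 0.5 members, was lower in Tet-TKO by 5.93, a 61-fold lower share with 4 and 2 libraries, and all 4 Tet-TKO libraries lay below both WT host ones. The fold was 36.8 without WT host library 1 and 101 without WT host library 2, 42.4 to 85.8 with a Tet-TKO library left out, and 119 when Tet-TKO cells without and WT host cells with a tdTomato UMI were dropped. That last fold rests on 0, 2, 1 and 0 Tet-TKO members, with each 0 set to 0.5. An exact permutation test over 15 splits, two-sided with the one-sided p doubled, gave p = 0.133, the smallest that this test can give here.

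**Figure D1:**
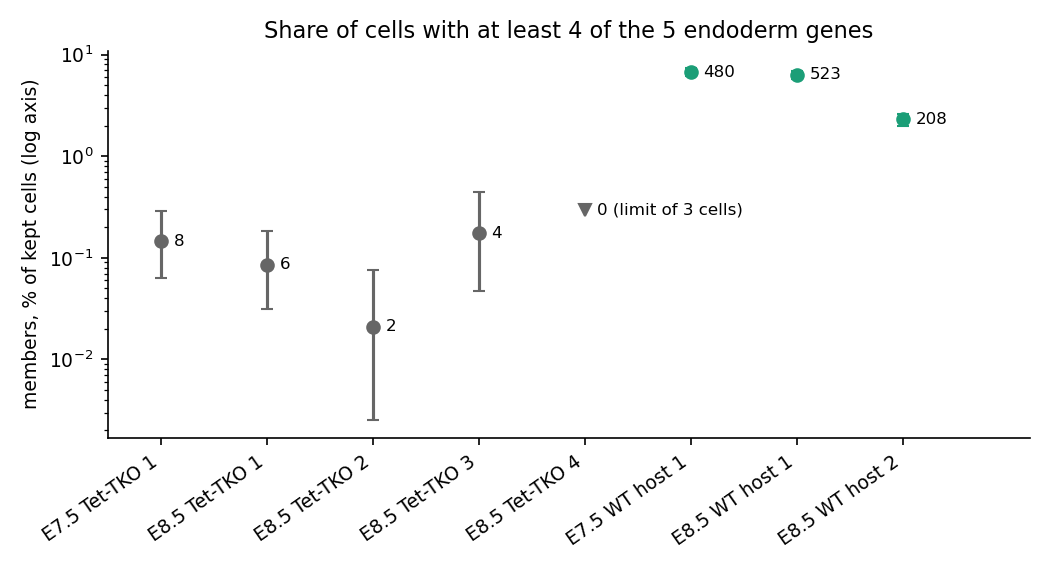
Share of kept cells in each library that met the rule, in percent on a log axis, with 95% exact binomial intervals and the number of members printed beside each point. Green points are WT host and grey points Tet-TKO libraries. The triangle marks the limit that 3 cells would give in the library with 0 members. The WT host libraries lie between 2.30% and 6.72%, above every Tet-TKO library.

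The tdTomato transcript was scarcer in the Tet-TKO members than in the cells around them. In the 4 Tet-TKO libraries with members, 3 of 8, 0 of 6, 2 of 2 and 1 of 4 members had a tdTomato UMI, which is 6 of 20 in all, or 30% (11.9 to 54.3). In the other cells of the same libraries the shares with a UMI were 61.2%, 67.3%, 60.8% and 87.3%. Summed over members the tdTomato level was 43.1, 0, 68.6 and 5.05 CPM (UMIs of the gene scaled to 1000000 UMIs of the same cells), against 71.5, 93.2, 97.8 and 127 CPM in the other cells. Each of the 4 member levels lay below that of the other cells of its library, but they rest on 5, 0, 4 and 1 tdTomato UMIs. The intervals of the shares per library are wide, at 8.52 to 75.5%, 0 to 45.9%, 15.8 to 100% and 0.631 to 80.6%. In the second E8.5 Tet-TKO library the share with a UMI was higher in members. Median depths of the members were 10222, 20981, 29166.5 and 49156.5 UMIs, against 20742, 18763, 12174 and 40386.5 UMIs in the other cells. In the third E8.5 Tet-TKO library the members without tdTomato had 33054, 2015 and 65259 UMIs, and the member with 1 tdTomato UMI had 97736.

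The rule did not read Ttr (the thyroxine carrier transthyretin), Rbp4 (the plasma retinol carrier) or Apoa1, the main protein of high-density lipoprotein. All 20 Tet-TKO members (median 21344.5 UMIs) had at least 1 UMI of each. Among the other cells of the 5 Tet-TKO libraries, with median depths of 12174 to 68704 UMIs, 1.99% to 6.57% had a UMI of Ttr, 6.79% to 19.3% of Rbp4 and 1.49% to 5.34% of Apoa1. Summed per library, Ttr was at 4702 to 15848 CPM in members and 3.84 to 20.6 CPM in those other cells. None of the 20 was called a doublet by Scrublet score, where an assumed rate set the calls at 2.39% to 7.9% of kept cells in the libraries with members. A single cell at E7.5 stood apart, with 31122 UMIs, of which 9 were of Ttr, 2 of Rbp4, 1 of Apoa1, 8 of the epiblast gene Pou5f1 and 52 of Trh (thyrotropin-releasing hormone, a gene of the embryonic visceral endoderm and gut tube). It held 3 tdTomato UMIs, the most of any E7.5 member. Another E7.5 member, of 6065 UMIs, held 5 Pou5f1 UMIs and 3 of the mesoderm gene Hand1, and a member of E8.5 Tet-TKO library 1, of 15488 UMIs, held 30 of Trh. In the WT host libraries 1 of 480, 0 of 523 and 0 of 208 members had a tdTomato UMI, where the zeros allow up to 0.703% and 1.76%. The other WT host cells had 0.464 to 0.963 CPM. Whether the members of the Tet-TKO libraries without a tdTomato UMI were host cells that passed the sort was not tested.

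The 5 rule genes, in CPM over the members of the E7.5 library and the first and second E8.5 WT host libraries, were as follows. Apoa4, an apolipoprotein of intestine and yolk sac, stood at 312, 314 and 396 CPM. Cubn, which encodes cubilin, was at 522, 542 and 472 CPM, and its membrane partner Amn at 1107, 1146 and 1015 CPM. Apob, the structural protein of secreted lipoproteins, was at 714, 866 and 794 CPM. Afp, the fetal plasma protein alpha-fetoprotein, was at 788, 1428 and 2201 CPM, the rule gene with the widest gap between stages. The other cells of these libraries had 0.542 to 12.2 CPM of each rule gene, a gap that the rule itself makes.

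The edge of the rule was not sharp. Cells with exactly 3 of the genes numbered 92, 64 and 20 in the 3 WT host libraries, those with 4 numbered 148, 75 and 39, and those with all 5 numbered 332, 448 and 169. Just inside the threshold, cells with 4 genes had a median of 17, 21 and 25 UMIs over the 5 genes, and just outside it cells with 3 genes had 10, 7 and 9.5. Median depths of members were 13327, 23391 and 14287 UMIs, so members of the first E8.5 library held more UMIs than those of the others. The other cells of the 3 libraries had median depths of 14223.5, 14975 and 13656.5 UMIs.

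Markers of visceral endoderm that the rule did not use were also higher in members than in the other cells. Ttr stood at 7680, 10639 and 10679 CPM in members against 57.5 to 158 CPM in the other cells, and Apoa1 at 5507, 7186 and 7175 CPM against 10.9 to 39.4 CPM. Hnf4a, the transcription factor that visceral endoderm shares with liver, was at 48.0, 50.2 and 50.7 CPM against 0.0971 to 0.547 CPM. The later liver gene Alb was near absent, with 0, 1 and 0 UMIs. Markers of other cell types were present as well: the summed level of 8 erythroid genes in members was 45.9, 2592 and 5557 CPM, against 187, 21264 and 48964 CPM in the other cells. The sums of the epiblast, mesoderm and endothelial lists were also lower in members in each library. The parietal endoderm sum was higher, at 1136, 1164 and 1036 CPM against 384, 609 and 445 CPM. Extraembryonic ectoderm was higher at E8.5 only (36.5 and 49.5 against 33.4 and 16.8 CPM), and gut endoderm at E7.5 only (253 against 189 CPM). By the highest Scrublet scores 8.33%, 14% and 17.3% of members were called doublets. The shares of all kept cells called, 6.12%, 7.19% and 7.75%, were set in advance by an assumed rate.

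Below, E8.5 WT host members are compared with E7.5 WT host members, after summing their UMIs per library. The spread between replicates comes from the 2 E8.5 libraries alone, the single E7.5 library is assumed to vary like them, and stage and library cannot be told apart. Of 12104 genes tested, edgeR's quasi-likelihood test called 153 higher at E8.5 (1.26%) and 186 lower (1.54%) at a Benjamini-Hochberg adjusted p of 0.01 and a log2 fold change of 1 or more. DESeq2 called 69 in either direction (0.57%), against 339 (2.8%) by edgeR. In this fit every gene took its spread from the trend over all genes. When the clusters of other cell types described below were left out this was no longer so, and edgeR called 0 genes higher and 1 lower, Sfrp1, with 1895 genes at an unadjusted p under 0.05. The counts below are therefore given with the number that DESeq2 also called, and the fold changes with their values per library. The ± values are standard errors (SE) of the edgeR fit. They carry the trend over all genes and not the spread of a gene's own libraries, which can be wider.

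Apoa2 and S100g were among the genes that rose, and Cer1, a secreted inhibitor of Nodal, BMP and Wnt, had the largest fold change among the genes of the embryonic and anterior visceral endoderm that fell. The sequences upstream of these genes and of the rule gene Afp are shown here. They are the 250 bases before the RefSeq transcription start in GRCm38.p6, and capitals mark matches to 5 short motifs on either strand.
Afp: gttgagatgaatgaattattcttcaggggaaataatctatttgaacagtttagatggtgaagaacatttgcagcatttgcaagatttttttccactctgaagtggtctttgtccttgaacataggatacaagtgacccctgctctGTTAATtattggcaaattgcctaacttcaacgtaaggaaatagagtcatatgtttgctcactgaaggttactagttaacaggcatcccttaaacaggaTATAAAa
Apoa2: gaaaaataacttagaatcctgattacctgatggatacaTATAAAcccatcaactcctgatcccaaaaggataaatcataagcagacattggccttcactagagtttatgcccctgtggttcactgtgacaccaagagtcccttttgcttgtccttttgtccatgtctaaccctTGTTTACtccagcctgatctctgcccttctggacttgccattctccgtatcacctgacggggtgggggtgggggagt
S100g: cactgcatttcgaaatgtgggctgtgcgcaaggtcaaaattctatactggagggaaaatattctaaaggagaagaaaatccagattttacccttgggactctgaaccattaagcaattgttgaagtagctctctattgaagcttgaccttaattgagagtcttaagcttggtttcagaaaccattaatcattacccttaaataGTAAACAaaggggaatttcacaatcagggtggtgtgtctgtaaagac
Cer1: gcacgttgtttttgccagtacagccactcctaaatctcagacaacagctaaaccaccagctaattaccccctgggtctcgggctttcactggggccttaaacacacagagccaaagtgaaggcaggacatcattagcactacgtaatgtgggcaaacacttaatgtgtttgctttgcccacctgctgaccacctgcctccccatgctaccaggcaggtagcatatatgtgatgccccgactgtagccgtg
These windows are chr5:90490464-90490713 on the + strand for Afp, chr1:171224804-171225053 on the + strand for Apoa2, chrX:162964600-162964849 on the - strand for S100g and chr4:82885152-82885401 on the - strand for Cer1. In GENCODE M21 they lie upstream of the gene bodies chr5:90490737-90508907, chr1:171225054-171226379, chrX:162961992-162964599 and chr4:82881751-82885148.

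The motifs searched were GTTAAT (an HNF1 site), TGTTTAC (a forkhead site), CAAAGTNCA (an HNF4 site), TATAAA and TAATCC (an OTX or GSC homeodomain site). Afp held GTTAAT at -105 to -100 from the RefSeq start and TATAAA at -7 to -2, and Apoa2, for which RefSeq lists 2 starts, held TGTTTAC at -77 to -71 and TATAAA at -212 to -207. For Afp the 2 annotations differ: the window ends at 90490713 and the GENCODE gene body begins at 90490737. Its motifs thus lie farther upstream of the GENCODE start. S100g held GTAAACA, the reverse complement of the forkhead letters, at -47 to -41, and Cer1 held none of the 5. Windows were found for 34 genes of the carrier, apolipoprotein and rule lists and 12 genes of the embryonic list. A gene was counted if any of its windows held the motif, while the percentages are of windows. The gene counts and the percentages are thus unlike measures. GTTAAT lay in 6.43% of all 32851 promoter windows, in 10 of the 34 and in 0 of the 12. TGTTTAC lay in 3.17% of all windows, in 3 of the 34 and in 0 of the 12, and CAAAGTNCA in 1.19%, in 2 and in 0. TATAAA lay in 12.4%, in 8 and in 3, and TAATCC in 6.25%, in 3 and in 1. These matches are a description of letters and show no binding.

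Apolipoprotein and lipid transport genes were high at both stages, and a few rose. Of 16 tested, 3 were called higher at E8.5 and 0 lower, where 1.26% and 1.54% of all genes were called, with a median log2 fold change of 0.36 against -0.01 over all genes tested, and DESeq2 called 1 of them. Apoa2, a protein of high-density lipoprotein, stood at 173 CPM at E7.5 and at 634 and 1104 CPM at E8.5, a log2 fold change of 2.37 ± 0.097 (SE). Its E8.5 libraries also differed from each other, and DESeq2 gave an adjusted p of 0.0227, above the 0.01 that a call needs. Apoc3, an inhibitor of lipoprotein lipase, rose from 73.0 to 158 and 167 CPM (1.21 ± 0.11) and was called by both tools. Fabp2, a fatty acid binding protein of absorbing epithelium, rose from 24.0 to 41.9 and 54.4 CPM (1.02 ± 0.17).

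The most abundant members of the list moved less than 2-fold. Apoa1 passed the adjusted p with a log2 fold change of 0.45 ± 0.060, and Apom, a carrier of sphingosine 1-phosphate, stood at 2246, 3170 and 2942 CPM (0.51 ± 0.069). Apoe was at 7714, 7282 and 6623 CPM (-0.09 ± 0.058, edgeR adjusted p = 0.45). Mttp, which loads lipid onto Apob, was at 171, 195 and 175 CPM (0.19 ± 0.098, edgeR adjusted p = 0.25).

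Plasma carriers and clotting proteins rose in part. Of 16 tested, 4 were called higher (1.26% of all genes) and 1 lower (1.54%), with a median of 0.54, and DESeq2 called 3 (0.57% of all genes). Rbp4 rose from 3462 CPM to 6972 and 7045 CPM (1.08 ± 0.063), and its E8.5 libraries lay close together. Trf, the iron carrier transferrin, rose from 168 to 338 and 465 CPM (1.30 ± 0.10) and was not called by DESeq2.

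The 3 fibrinogen chains moved the same way with unequal size. Fga rose from 17.5 to 40.1 and 55.1 CPM (1.45 ± 0.18) and Fgg from 77.5 to 143 and 181 CPM (1.10 ± 0.11), and both tools called both. Fgb, at 171, 259 and 289 CPM, stayed under the 2-fold limit (0.73 ± 0.099). The clotting factor gene F5 fell from 16.9 to 3.30 and 3.42 CPM (-2.27 ± 0.29). Ttr passed the adjusted p with 0.53 ± 0.056. A further 4 genes of the liver set, Alb, Ahsg, Cp and Serpina6, had 0 to 3 UMIs in each library and were not tested.

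**Figure D2:**
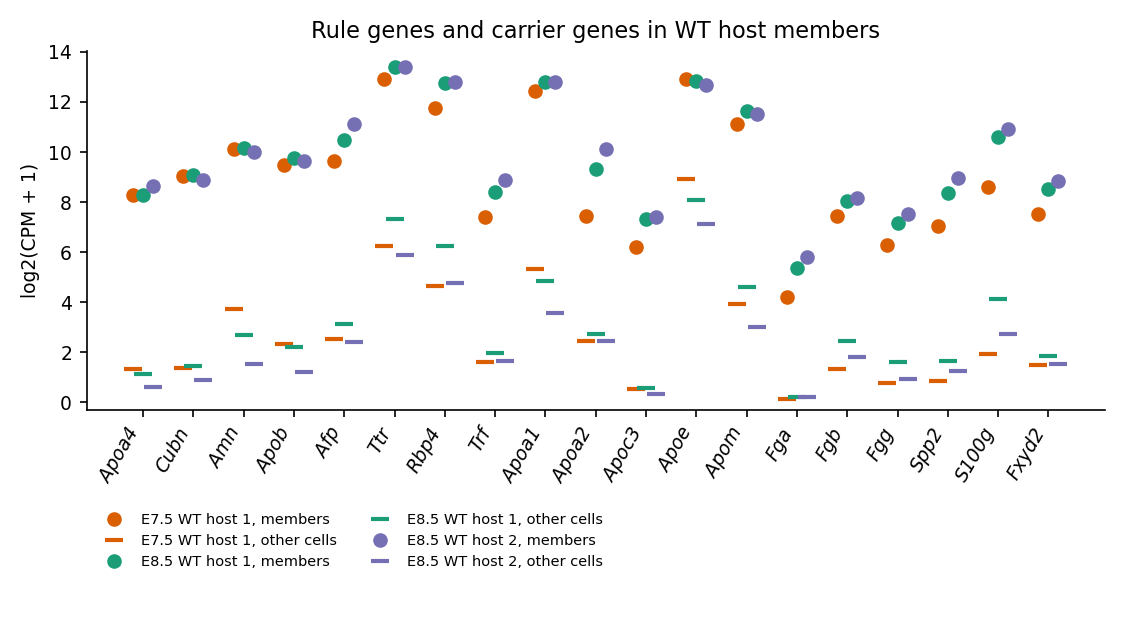
Levels of the 5 rule genes and of carrier genes in WT host libraries, as log2(CPM + 1). Circles are sums over members and dashes sums over the other cells of the same library, with 1 colour per library. Apoa2, S100g, Spp2 and Trf lie higher in both E8.5 libraries than in the E7.5 library, and Apoe does not.

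The 10 called genes with the largest rise were taken among genes of at least 50 CPM in a library that were at least as high in E8.5 members as in the other E8.5 cells, without the rule genes and the marker lists of other cell types. The limit on the other cells alone leaves out 9 called genes, the globins among them. Of the 10, Apoa2, Trf and Fga are described above and Phlda2 with the imprinted genes, and the other 6 follow. S100g, which encodes the calcium-binding protein calbindin-D9k, rose from 387 to 1530 and 1935 CPM (2.22 ± 0.086) and was called by both tools (DESeq2 adjusted p = 7.0e-13). Sct, the hormone secretin, rose from 11.7 to 60.5 and 54.1 CPM (2.37 ± 0.18). Spp2, a secreted phosphoprotein, rose from 132 to 332 and 499 CPM (1.69 ± 0.10, not called by DESeq2).

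Fxyd2, a regulator of the sodium pump, rose from 184 to 370 and 461 CPM (1.22 ± 0.099). Cebpb, a transcription factor of liver and fat, rose from 24.2 to 57.3 and 58.5 CPM (1.32 ± 0.16). Nudt11, an enzyme acting on inositol phosphates, rose from 40.3 to 93.1 and 97.4 CPM (1.30 ± 0.13). For each of these 3 genes both E8.5 libraries lay above the E7.5 library and both tools made the call.

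The share of members with a UMI of S100g or Apoa2 was also higher at E8.5 at equal depth. With each member thinned to 5000 UMIs, leaving out 39, 25 and 20 shallower members, S100g was found in 54.6%, 92.6% and 94.1% of members (71.5%, 97.9% and 98.6% unthinned). Apoa2 was found in 40.6%, 74.1% and 88.3% of thinned members (56.5%, 89.9% and 97.1% unthinned). Sct was found in 5.22%, 20.3% and 21.8% of thinned members, against 10.4%, 42.1% and 39% unthinned. Hba-x, an embryonic globin gene of erythroid cells, was found in 0.454%, 68.3% and 89.4% of thinned members. The part of RNA from other cells in such shares was not tested.

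Of 21 endocytosis and lysosome genes tested, 0 were called in either direction and DESeq2 called 0, where 2.8% of all genes were called and nothing is read from the count of 0. Of the 21, 20 had a log2 fold change above 0 (median 0.19) and 5 passed the adjusted p alone. Their changes ran from -0.24 to 0.44. Lrp2, the large receptor megalin that works with cubilin and amnionless, stood at 86.8, 114 and 108 CPM (0.43 ± 0.11). Ctsl, a lysosomal protease, was at 4864, 5207 and 5094 CPM (0.14 ± 0.062, edgeR adjusted p = 0.14), and Lgmn, another, at 1201, 1316 and 1315 CPM (0.19 ± 0.077, edgeR adjusted p = 0.099). Dab2, the adaptor that carries these receptors into coated pits, was at 1158, 970 and 910 CPM (-0.24 ± 0.078).

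The genes of the embryonic and anterior visceral endoderm fell together. All 13 tested of a list of 14 were called lower at E8.5, with a median log2 fold change of -2.99, and DESeq2 called 6 of them, against 1.54% of all genes called lower by edgeR. The list sum was 449 CPM in E7.5 members against 49.6 and 61.9 CPM at E8.5, while in the other cells of these libraries it was 293, 190 and 179 CPM. The remaining gene, Tdgf1, had 7, 2 and 0 UMIs and was not tested.

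Among the secreted inhibitors, Cer1 had 346 UMIs at E7.5 (52.6 CPM) and 1 and 0 UMIs at E8.5, a ratio of 807 with a counting interval of 144 to 31949. Dkk1, an inhibitor of Wnt, fell from 78.7 to 14.6 and 8.09 CPM (-2.56 ± 0.16). Lefty1, an inhibitor of Nodal, fell from 5.32 to 0.825 and 0 CPM with 35, 10 and 0 UMIs. In each case the E7.5 library stood above both E8.5 libraries.

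The frizzled-related Wnt antagonists were less even between replicates. Sfrp1 fell from 87.9 to 3.8 and 14 CPM (-3.71 ± 0.18), and Sfrp5 from 21.1 to 2.23 and 6.84 CPM (-2.55 ± 0.27). DESeq2 called neither. Without the clusters of other cell types Sfrp1 had the most negative fold change over the alternatives, -7.75.

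Transcription factors of the region followed. Lhx1 fell from 56.1 to 7.10 and 3.73 CPM (-3.10 ± 0.19), Eomes from 29.8 to 5.36 and 4.04 CPM (-2.50 ± 0.23) and Otx2 from 26.1 to 0.990 and 4.04 CPM (-3.85 ± 0.29). Gsc had 67 UMIs at E7.5 and 2 and 0 at E8.5, a ratio of 78.1 (20.8 to 658). DESeq2 called Lhx1, Eomes and Gsc, and did not call Otx2. Of the 13 genes tested, 2 were lower in E7.5 members than in the other cells of that library. These were Eomes, at 61.7, 2.65 and 0.785 CPM in the other cells of the 3 libraries, and Otx2, at 31.7, 20.8 and 23.1 CPM there, and the part of those cells' RNA in the members' values was not tested. Hhex and Hesx1 fell less, with log2 fold changes of -1.69 and -1.65, and Fzd5, a Wnt receptor, by -1.62.

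The signals themselves fell in part. Nodal had 175 UMIs at E7.5 and 1 and 1 at E8.5, a ratio of 204 (55.6 to 1698). Of 12 other signalling genes tested, 4 were called lower and 0 higher, where 1.54% and 1.26% of all genes were called, and DESeq2 called Fgf5 alone. Bmp2 fell from 53.8 to 18.4 and 9.33 CPM (-1.72 ± 0.17), Fgf8 from 21.1 to 4.46 and 9.64 CPM, and Wnt3 from 6.69 to 1.73 and 0.622 CPM. Fgf8 was higher in the other cells, at 36.6, 47.1 and 43.6 CPM. Fgf5, which is counted again among the epiblast genes below, had 190, 3 and 0 UMIs, a ratio of 148 (49.8 to 722). Ihh, which signals from visceral endoderm to blood-forming mesoderm, stood at 28.7, 50.5 and 45.1 CPM (0.82 ± 0.16), under the 2-fold limit, and Vegfa at 32.7, 31.4 and 25.8 CPM (-0.09 ± 0.17, edgeR adjusted p = 0.86).

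**Figure D3:**
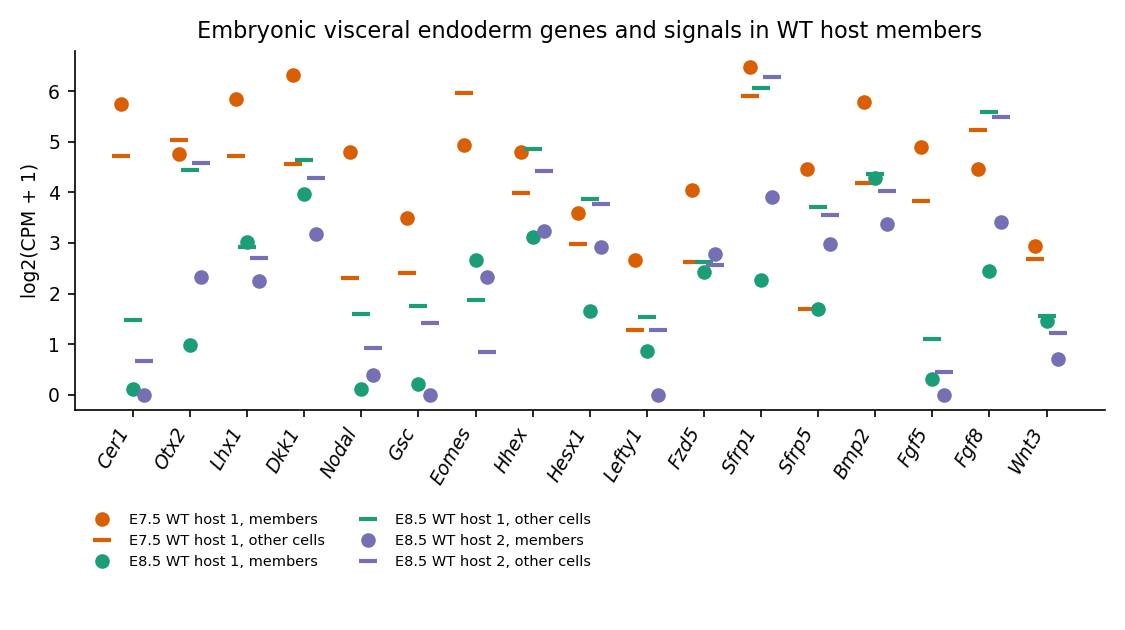
Levels of embryonic visceral endoderm genes and signalling genes in WT host libraries, as log2(CPM + 1), with circles for sums over members and dashes for the other cells of the same library. The signalling genes shown from the list of 12 tested, Bmp2, Fgf5, Fgf8 and Wnt3, are the 4 that were called lower. In that list 6 genes had a positive fold change, so the figure does not show the signals as a whole. For each gene shown the E7.5 circle lies above both E8.5 circles. Cer1 goes from 52.6 CPM to 0.0825 and 0 CPM.

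Further genes of at least 50 CPM that were as high in E7.5 members as in other cells or higher also fell. Gpc4, a glypican of the cell surface, fell from 55.9 to 2.48 and 2.18 CPM (-4.46 ± 0.23). Pga5, a pepsinogen, fell from 131 to 16.0 and 12.1 CPM (-3.07 ± 0.14). Cyp26a1, which degrades retinoic acid, fell from 99.1 to 35.5 and 18.7 CPM (-1.65 ± 0.13, not called by DESeq2). Tspan7, a tetraspanin, and Car2, a carbonic anhydrase, fell by 1.83 and by 1.34 on the log2 scale, and both tools called both. Trh, counted with the gut endoderm markers, fell from 196 to 19.5 and 7.78 CPM (-3.53 ± 0.12), and DESeq2 did not call it.

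Of members thinned to 5000 UMIs, Cer1 was found in 15.9%, 0.201% and 0% (0 of 188, which allows up to 1.94%). Lhx1 was found in 16.3%, 3.61% and 2.13%, Dkk1 in 14.3%, 7.03% and 2.13%, and Trh in 22.9%, 6.43% and 3.19%. Unthinned, Cer1 was found in 18.8%, 0.191% and 0% of members, Lhx1 in 27.7%, 12.2% and 5.29%, Dkk1 in 26.5%, 18.5% and 8.65%, and Trh in 29.8%, 9.37% and 3.37%. A member with no UMI may still express a gene at these depths.

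Of 14 endoderm transcription factors tested, 0 were called higher (1.26% of all genes) and 2 lower (1.54%), with a median of -0.27, and DESeq2 called 1. In all, 4 of the 14 passed the adjusted p, each with a negative fold change. Sox17, an early endoderm factor, fell from 140 to 59.2 and 45.1 CPM (-1.30 ± 0.11, called by both tools), and Foxa1 from 9.12 to 3.14 and 3.11 CPM (-1.47 ± 0.36). Hnf4a had a log2 fold change of 0.13 ± 0.14 (edgeR adjusted p = 0.69), Gata4 of -0.30 ± 0.14 and Gata6 of -0.32 ± 0.16. Foxa2, at 45.8, 29.5 and 28.6 CPM (-0.58 ± 0.16), and Tcf7l2, a mediator of Wnt signals, at 66.3, 40.3 and 41.1 CPM (-0.64 ± 0.14), passed the adjusted p and not the 2-fold limit.

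Imprinted growth genes included 3 of 12 tested that rose (1.26% of all genes) and 0 that fell (1.54%), with a median of 0.24, and DESeq2 called 2. With Scrublet doublets removed, 2 of 11 tested were called higher (Phlda2 and Dlk1) and 2 lower (Grb10, -1.42, and Mest, -1.15), with a median of 0.08. Without the clusters of other cell types and the regional clusters Mest turned to 0.98 and Dlk1 had 0.89, neither called. Phlda2, a growth restrainer of placenta and yolk sac, rose from 385 to 831 and 943 CPM (1.26 ± 0.088), and Dlk1, a secreted and membrane growth factor, from 147 to 311 and 306 CPM (1.14 ± 0.10), each called by both tools. Plagl1 rose from 2 UMIs to 39 and 10 UMIs (0.304, 3.22 and 3.11 CPM) and was at 2.67, 18.7 and 20.8 CPM in the other cells. H19 was high at 1102, 1155 and 1130 CPM (0.11 ± 0.078, edgeR adjusted p = 0.47). Grb10, at 104, 46.7 and 57.2 CPM, lay just under the 2-fold limit (-0.98 ± 0.12).

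Of 9 vitamin A and B12 genes tested, 3 were called higher, Rbp2 (0.912, 7.01 and 16.2 CPM), Crabp1 (10.9, 24.9 and 67.8 CPM) and Crabp2 (20.5, 66.7 and 129 CPM), and DESeq2 called Rbp2 alone. Of all genes 1.26% were called higher. With Scrublet doublets removed 2 of the 9 were called higher and 1 lower. Crabp1 and Crabp2 were at 268 and 389 CPM and at 127 and 173 CPM in the other E8.5 cells, above the members, and the part of those cells' RNA in these values was not tested. Crabp1 was a leading gene of E8.5 cluster 5, described below with genes of other cell types, at 178 CPM against 11.9 CPM in the other E8.5 members. Without the clusters of other cell types Crabp1 stood at 7.75, 9.74 and 13.6 CPM and Crabp2 at 18.1, 66.4 and 115 CPM. The cobalamin carrier Tcn2 stood at 185, 196 and 188 CPM (0.13 ± 0.098, edgeR adjusted p = 0.55).

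For 15 genes each of cholesterol synthesis, glycolysis, and epithelium with brush border, and for 10 of iron, haem and metal handling, 0 were called in either direction by edgeR, with 1, 1, 4 and 1 passing the adjusted p alone, and DESeq2 called 0. Of all genes tested 2.8% were called, and nothing is read from counts of 0 in lists of this size. In the epithelium list 1 gene was called lower with Scrublet doublets removed and 1 higher without the clusters of other cell types and the regional clusters. The medians were 0.17, 0.07, -0.17 and 0.01. Among 15 cell cycle genes only Cdkn1a, a brake on the cycle, was called, rising from 20.2 to 46.4 and 39.5 CPM (1.18 ± 0.17), and DESeq2 did not call it. Mki67 stood at 68.4, 57.8 and 63.5 CPM. Spink1, a protease inhibitor and among the most abundant transcripts at E7.5, was at 9736, 6015 and 4349 CPM (-0.84 ± 0.057). It belongs to a list of X-linked and other extraembryonic genes, of which 8 were tested, S100g was called higher and Dnmt3l (25, 8 and 0 UMIs) lower, and DESeq2 called S100g alone.

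**Figure D4:**
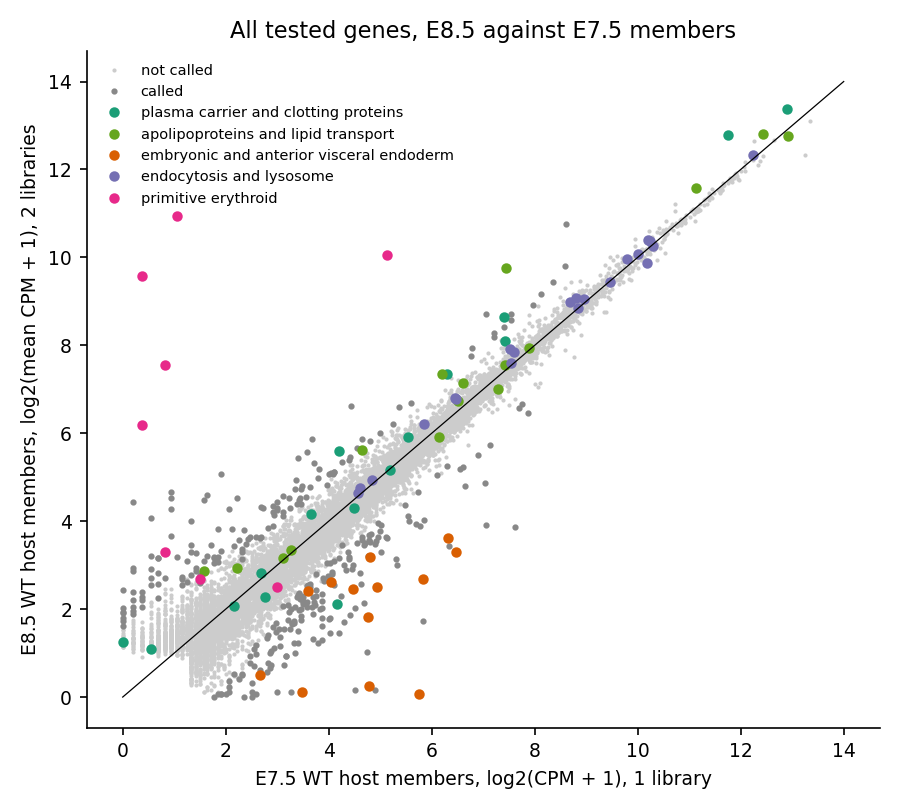
Level of each tested gene in E7.5 WT host members (x axis, 1 library) against the mean of 2 E8.5 WT host libraries (y axis), both as log2(CPM + 1), with the line of equal levels. Light points were not called and dark points were called. Coloured points are list members: the embryonic and anterior visceral endoderm genes lie below the line, 7 of 8 erythroid genes lie above it, and the endocytosis and lysosome genes lie along it.

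Genes of other cell types moved with stage too. Of 8 erythroid genes tested, 6 were called higher, 5 of them by DESeq2 as well, and Hba-x, an embryonic globin, went from 1.06 to 1320 and 2617 CPM in members while the other cells had 13.6, 11018 and 23385 CPM. In the 8 E8.5 clusters of members outside the globin cluster, Hba-x stood at 246 to 404 CPM. Without the clusters of other cell types it was 0.176, 218 and 527 CPM. Epiblast genes (5 of 7 tested), mesoderm genes (3 of 7) and extraembryonic ectoderm genes (2 of 6) were called lower, and 1 of 5 endothelial genes, Kdr, higher, where 1.54% of all genes were called lower and 1.26% higher. Of these DESeq2 called 3 epiblast genes and 0 of the others. Pou5f1, the pluripotency factor, fell from 15.4 to 1.65 and 1.87 CPM in members and was at 198, 18.9 and 5.83 CPM in the other cells. Of 11 parietal endoderm genes, Srgn alone was called, lower (80.3, 12.8 and 6.84 CPM), and of 7 gut endoderm genes Pyy was called higher and Trh lower, where DESeq2 called Srgn alone. With Scrublet doublets removed, 5 of 8 erythroid genes tested were called higher, and 3 of 6 epiblast, 1 of 6 mesoderm and 0 of 2 extraembryonic ectoderm genes lower, while 0 of 2 endothelial genes were called. The part of free RNA in these values was not tested.

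The members were not uniform. Clustered within each stage, E7.5 members formed 7 clusters of 39 to 170 cells, and the E8.5 members of both libraries formed 9 of 23 to 128. Since clusters are drawn from the same counts, their genes are a description, and each is called by its leading genes.

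At E7.5 the largest cluster (170 members) led with Sct, Aqp8 (a water channel), Fabp1 (a fatty acid-binding protein) and Lrp2 among its top 10, and had 630 CPM of S100g. Cluster 4 (49 members) led with Apoa2 and Fcgrt at a low median depth of 7611 UMIs. Cluster 1 (66 members) led with Spp2, Ptgds and Afp, the last at 1755 CPM. Cluster 2 (57 members) led with Ptgds, Chga and Pga5 and held 115 CPM of Cer1 and 165 CPM of Dkk1.

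Cluster 3 (56 members) was embryonic visceral endoderm-like, with all 9 markers of that class raised and 3 of them, Cer1, Lefty1 and Hesx1, among its top 10. It held 387 CPM of Cer1, 415 CPM of Dkk1, 161 CPM of Otx2 and 1147 CPM of Trh, while Fabp1 was at 0 there and Apoa2 at 28.2 CPM. Cluster 5 (43 members) led with Fgfbp1, Sp5, Fgf8 and Nodal, at 213 CPM of Nodal and 839 CPM of Trh, and had 359 CPM of Rbp4 against 4725 CPM in the largest cluster. Lrp2 had 0 UMIs in both clusters against 147 CPM in the largest cluster. Cubn, which the rule read, stood at 141 and 136 CPM against 651 CPM there. Clusters 3 and 5 together made 99 of 480 members.

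At E8.5 most clusters were of carrier-rich cells. The largest (128 members) led with Crip1 and Apoa2 and held 3606 CPM of Afp and 1812 CPM of Apoa2. It took 12% of the members of the first library and 31.3% of the second, so the libraries differed in make-up as well as in number. Cluster 2 (118 members) led with Ptgds and Pga5, as a cluster did at E7.5, but had 0 UMIs of Cer1 and 7.6 CPM of Dkk1. Cluster 3 (93 members) led with Igfbp1 and Fabp3 and had 428 CPM of Afp. It had 6 parietal endoderm markers raised, Lama1 and Srgn among its top 10, and was left unnamed.

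Cluster 6 at E8.5 (46 members) led with Trh, Apela, Hpx and Vtn, and also held Pyy, a gut hormone, at 62.8 CPM and Nepn at 34.1 CPM. It came from 41 members of the first library and 5 of the second. It had 80.5 CPM of Dkk1 and 71.0 CPM of Hhex, the highest of any E8.5 cluster, but 0 of Cer1 and of Nodal, and 50.5 CPM of Apoa2 against 1812 CPM in the largest. It was left unnamed, since the 3 raised gut endoderm markers stood beside high Ttr (11738 CPM). Trh, Dkk1 and Hhex, which were highest in cluster 3 at E7.5, were thus highest in this cluster at E8.5.

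**Figure D5:**
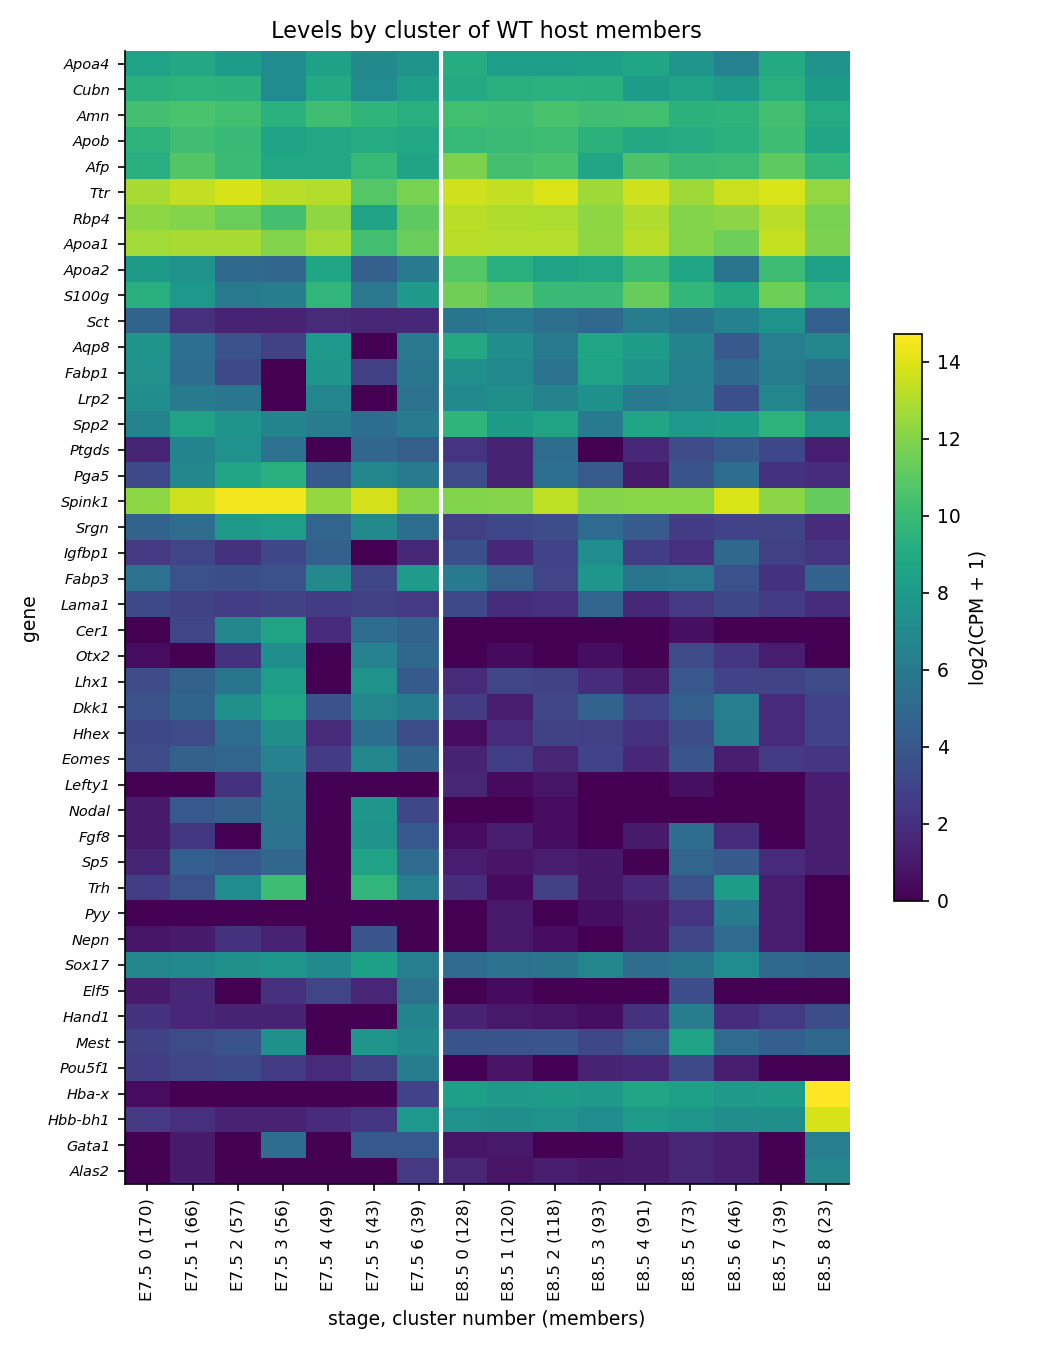
Levels by cluster of WT host members as log2(CPM + 1), with genes in rows and clusters in columns, E7.5 to the left and E8.5 to the right of the white line, and the number of members in brackets. Cer1 and Otx2 are high in E7.5 cluster 3, Nodal and Sp5 in E7.5 cluster 5, Trh in both and in E8.5 cluster 6, and the globins in E8.5 cluster 8.

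Smaller clusters carried the genes of other cell types. E7.5 cluster 6 (39 members, median 24300 UMIs) led with Hbb-bh1 and Hand1, and E8.5 cluster 5 (73 members, 29444 UMIs) with Mest, Acta2 and Hand1. E8.5 cluster 8 (23 members, 35774 UMIs) had 7 erythroid markers raised and 27118 CPM of Hba-x. These 3 clusters, with 39, 67 and 29 members in the 3 libraries, had higher median depth than the members as a whole.

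The embryonic list had a median log2 fold change of -3.19 when these 3 clusters were left out, with 13 of 13 genes negative and 1 called. When the regional clusters (E7.5 clusters 3 and 5 and E8.5 cluster 6) were left out as well, the median was -1.92 over 10 genes tested, with 9 negative and 8 called. Cer1 then stood at 16.0, 0 and 0 CPM. Of the UMIs left at E7.5, cluster 2 held 65 of 73 for Cer1 and 93 of 156 for Dkk1. Otx2 stood at 0.656, 0.319 and 0 CPM and was not tested. Of the genes not called, Hesx1 had -0.38 and Fzd5 turned to 0.31. Without all these clusters Apoa2 was at 231, 737 and 1315 CPM and S100g at 495, 1760 and 2282 CPM.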

How the data were processed

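The authors sequenced 10x Genomics 3' libraries, aligned them to mm10 in Cell Ranger (the deposited header names 3.1.0, the study's methods a later release) and counted them on the GRCm38.92 annotation with tdTomato added. What the authors deposited are UMI counts, not normalized. Barcodes with under 1500 UMIs, over 30% mitochondrial or over 35% ribosomal counts were dropped. Counts of members were summed per WT host library and tested with edgeR 4.0.16 (quasi-likelihood, filterByExpr, TMM, Benjamini-Hochberg), with 1 residual degree of freedom, a call needing an adjusted p under 0.01 and a log2 change of at least 1 in size. The 5 rule genes were part of the fit and its adjustment, and no call was made for them. DESeq2 1.42.0 was an alternative. The members and gene lists were chosen with earlier results of these data known. Named genes are the 10 called in each direction with the largest change among those of 50 CPM or more in a library and at least as high in members as in other cells where higher, leaving out the rule genes and the lists of other cell types, plus list members. Clusters came from Leiden clustering (resolution 0.8, scanpy 1.11.5). The highest Scrublet scores were called doublets, up to an assumed 0.8% of cells per 1000 barcodes. On simulated counts for the stage comparison, 68.2%, 81.8% and 79.4% of genes changed by 1.5, 2 and 3 on the log2 scale were called, with 1 false call among 11909 genes. These counts were drawn with the fitted trend in spread alone, alike in all libraries, which is what the fit assumes. The rates hold under that assumption only and do not show how many false calls the real data hold. SE is the fold change divided by the square root of F, and so rests on the trend in spread over all genes. Shares have 95% Clopper-Pearson intervals, and a count of 0 allows 3. P-values rest on the spread between these libraries, which may be technical and which the reported edgeR fit takes as a trend over all genes. Sequences are from RefSeq.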

Additional observations from a re-analysis of the deposited data

How the results depend on the processing

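The number of genes called between stages (153 higher and 186 lower at E8.5) depended on the fit. It was 38 and 31 with DESeq2, 41 and 56 for members with all 5 markers, 69 and 89 with an equal number of 208 members per library, 87 and 67 for genes at least 2 times higher in members than in other cells, and 443 and 303 with no minimum fold. Among alternatives added once the data had been seen, leaving out the clusters of other cell types gave 0 and 1, where 1895 genes had an unadjusted p under 0.05 and 84 an adjusted p under 0.05, and 80 and 63 without the regional clusters as well. The estimated prior degrees of freedom were infinite in the reported fit and 4.03 without the clusters of other cell types. All 38 genes called higher and all 31 called lower by DESeq2 were among the edgeR calls. With adjusted p 0.05, DESeq2 size factors, no filter on low counts, at least 3 markers, thinning, 3000 UMIs, doublet removal, the rule genes left out of the counts or robust moderation, 112 to 204 were called higher and 125 to 225 lower. The 20 genes named for their change were picked for large changes in these same counts, so a kept direction is no support. They kept it in 220 of 220 alternative values. Of these, 40 leave out an E8.5 library and have no test, and of the 180 with a test 25 no longer passed the threshold, 19 of them without the clusters of other cell types and 6 with DESeq2. Adjusted p over the alternatives reached 0.508 for Cyp26a1, 0.498 for Sfrp1 and 0.485 for Bmp2, and at most 0.0915 (Fga) for the other 17. Without a test, 504 genes lay past 2-fold higher and 489 lower at E8.5, and 373 to 592 and 459 to 599 with either E8.5 library left out.

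The difference in log2 share between Tet-TKO and WT host at E8.5 was -5.54 to -6.90 over the marker, depth, doublet and tdTomato alternatives, and -5.20 to -6.66 with each library left out. The groups share replicate numbers, and the paper compares each Tet-TKO sample with a matching WT host, but nothing says that a number marks that match. With the replicate block over the 2 numbers that both groups have, the difference was -6.50. For the stage comparison no paired analysis was possible because the stages share only 1 number. The E8.5 over E7.5 share was -0.55 to -0.92 over the marker, depth and doublet alternatives and -0.09 to -1.55 with either E8.5 library left out. With 1 library at E7.5, its own spread is not measured. Members per library limit low genes, since 3 UMIs are 0.456 CPM over the E7.5 members.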

Other observations

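Values of some further genes are given here as a description, and some of these genes, such as Mest and Elf5, belong to lists compared above. Aqp8, a water channel, was a leading gene of E7.5 clusters 0 and 4 and of E8.5 cluster 0. It rose from 109 to 193 and 296 CPM in members (log2 fold change 1.19 ± 0.10, edgeR, not called by DESeq2). It stood at 197 CPM in the largest E7.5 cluster and at 0 in E7.5 cluster 5. The X-linked homeobox gene Rhox5 was at 1139, 1128 and 1121 CPM in members while the other cells of the same libraries had 702, 66.9 and 30.1 CPM. Trap1a, also X-linked, was at 331, 436 and 446 CPM in members against 230, 34.5 and 10.7 CPM. Gata1, an erythroid factor, had 38.2 CPM in E7.5 cluster 3 and 15.8 CPM in E7.5 cluster 5, clusters with 0 CPM of Hba-x. It had 15.6 CPM in E7.5 cluster 6 and 0 to 1.1 CPM in E7.5 clusters 0, 1, 2 and 4. The extraembryonic ectoderm gene Elf5 had 46.8 CPM in E7.5 cluster 6 and 0 to 7.4 CPM in the other E7.5 clusters. Mest had 168, 205 and 132 CPM in E7.5 clusters 3, 5 and 6 and 0 to 12.4 CPM in E7.5 clusters 0, 1, 2 and 4. These genes were picked after their values were seen.

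The UMI sums of members in the 2 E8.5 WT host libraries differed by more than counting error, with a chi-square of 3.34 per degree of freedom over 11502 genes.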
